A study of Mus musculus with 8 samples.

Results

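The 9 genes described here encode enzymes and transporters of peroxisomal beta-oxidation: Abcd3, Acox2, Ehhadh, Hsd17b4, Acaa1a, Acaa1b, Scp2, Ech1 and Crot. They were chosen by name, with earlier results of these data known. For each gene the brightest probe set that the platform annotation assigns to exactly 1 gene was taken. All 9 of the 9 listed genes were measured, each by 1 probe set, among 30627 genes in all. They were bright on these arrays, with mean signals between the 93.6th and the 99.7th percentile of all genes.

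Peroxisomes shorten fatty acids that mitochondria handle poorly, such as very long, branched and dicarboxylic chains, and they also trim the side chain of cholesterol-derived bile acid precursors. Each round of the cycle runs through an oxidase, a bifunctional hydratase and dehydrogenase, and a thiolase. The products leave as acetyl units and as carnitine esters. In rodent liver several of these genes are classic targets of the lipid-sensing nuclear receptor PPAR-alpha, which gave the peroxisome proliferator response its name.

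RNA came from the livers of male C57BL/6 mice kept on a high fat diet for 13 weeks. In the treated group, 4 mice had received 5 intraperitoneal injections of anti-miR-128-3p, which is meant to block the microRNA of that name. The 4 control mice had the same diet and received a control that the labels name in different ways (vehicle, or control), so its content is uncertain. One treatment field names the microRNA and not its inhibitor, and the groups here follow the sample titles. Each array was taken as 1 mouse, which the numbered titles imply but do not state, so p-values measure only the spread between these 8 samples.

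The targeted microRNA is shown with its seed, bases 2 to 8, in capitals, because it is the sequence the treatment was directed at. Mouse Mir128-1 (GRCm38.p6 chr1:128202404-128202424, plus strand) and Mir128-2 (GRCm38.p6 chr9:112118644-112118664, minus strand) carry the same mature sequence of 21 bases in RefSeq.
mmu-miR-128-3p: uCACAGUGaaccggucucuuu

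The arrays gave RMA log2 signals with medians over genes of 5.04 to 5.12, against 4.32 to 4.48 for the negative control rows. Albumin (Alb), the defining hepatocyte product, had a mean log2 signal of 13.92 ± 0.04 (SD, n = 4) in the control group and 13.96 ± 0.05 (SD, n = 4) in the treated group. Control replicate 1 stood apart in neutrophil genes, with a list score of 1.31 (mean gene-centred log2 signal) against -0.37 to -0.01 in the other 7 livers. Treated replicate 3 stood apart in stellate cell and fibroblast genes, with a score of 0.88 against -0.34 to 0.33 in the others.

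None of the 9 peroxisomal beta-oxidation genes changed between the groups by the test used, and the mean of every one of them was slightly below control in the treated livers, a direction that turned for 5 of them (Scp2, Crot, Ehhadh, Acaa1b and Abcd3) under quantile normalization or with 1 liver left out. The log2 differences, treated minus control, ran from -0.19 (Ech1) to -0.03 (Scp2), with a median of -0.10 against -0.0017 over all genes. Leaving out single livers moved that median to -0.16 (control replicate 1), -0.05 (control replicate 2 or treated replicate 3) and -0.04 (control replicate 4). By limma with Benjamini-Hochberg adjustment over all genes, 0 of the 9 were called and their adjusted p ran from 0.663 to 0.964. The background for that call was 0% of genes. At an unadjusted p under 0.05, 0 of the 9 were lower, where 3.37% of all genes and 4.86% of the genes at or above the median signal were.

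Over all genes 50.9% had a lower mean in treated livers, and 50.1% of the genes at or above the median signal did, against 9 of these 9. After quantile normalization of the deposited values, Scp2 (0.07) and Crot (0.03) were above control, so that 7 of 9 were lower. Leaving out control replicate 2 also gave 7 of 9, with Ehhadh (0.01) and Acaa1b (0.04) above control. It was 8 of 9 without control replicate 4 or treated replicate 3 (Abcd3 above) and without treated replicate 4 (Crot above). No gene of the 9 had groups without overlap, where 1.89% of all genes were lower in that way. The genes share their livers, so their common direction is not 9 separate observations. The list was also chosen with earlier results of these data known, so its counts beside those of all genes are only a description. In whole liver, fewer hepatocytes and less RNA per hepatocyte cannot be told apart.

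**Figure D1:**
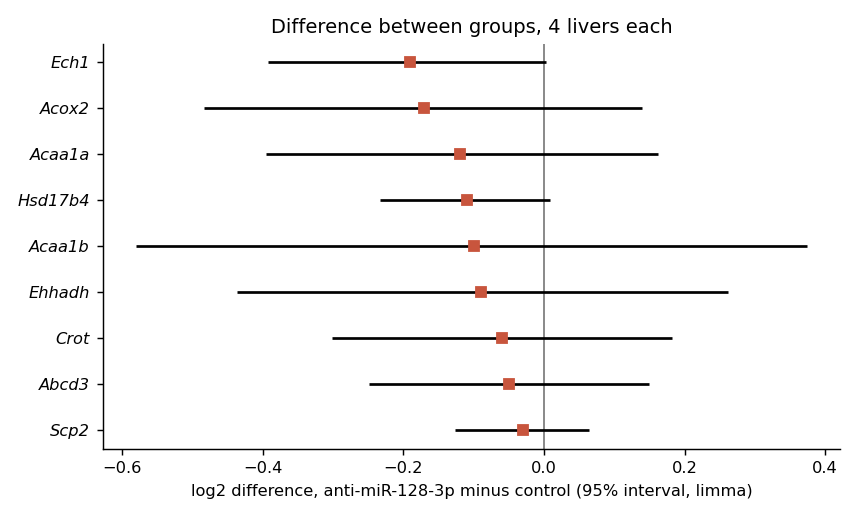
Log2 difference between the group means (anti-miR-128-3p minus control, 4 livers each) for the 9 genes on the horizontal axis, squares, with the 95% interval of the limma fit as lines. All 9 squares lie below 0, from -0.19 to -0.03 (Scp2 and Crot lie above 0 after quantile normalization, and Ehhadh, Acaa1b, Abcd3 or Crot when a single liver is left out), and all 9 intervals include 0.

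The intervals give the range of change that the values of each gene allow, before any adjustment for the number of genes. A call after adjustment needed more. The smallest adjusted limma p of all genes was 0.194, and Ifit1 had that value at a log2 difference of 1.61 ± 0.24 (± SE, n = 4 per group). The 95% interval of the limma fit included 0 for 9 of 9 genes. It was narrowest for Scp2, from -0.127 to 0.064, which in fold terms is 0.92 to 1.05 of control. It was widest for Acaa1b, from -0.580 to 0.374, or 0.67 to 1.30 of control, so for this thiolase neither a loss of nearly that size nor a gain could be resolved with 4 livers a group.

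The uptake step is represented by Abcd3, also known as PMP70, an ABC transporter of the peroxisomal membrane that carries acyl-CoA esters and bile acid precursors inward. Its log2 signal was 10.58, 10.54, 10.61 and 10.87 in control replicates 1 to 4 and 10.64, 10.72, 10.42 and 10.62 in treated replicates 1 to 4. Control replicate 4 was the highest liver and treated replicate 3 the lowest. Among the other 6 livers, the treated ones (10.62 to 10.72) all lay above the controls (10.54 to 10.61), against the direction of the group means. The difference was -0.05 ± 0.09 (log2, ± SE, n = 4 per group, limma adjusted p = 0.958). Leaving out control replicate 4 gave 0.02, and leaving out treated replicate 3 gave 0.01.

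The first oxidation is represented by Acox2, a branched-chain acyl-CoA oxidase that acts on bile acid precursors. Acox2 was at 9.81, 9.51, 9.94 and 9.89 in control livers and at 9.41, 9.67, 9.97 and 9.43 in treated livers. The treated livers were divided: replicates 1 and 4 lay below every control, replicate 3 above every control. The difference was -0.17 ± 0.14 (n = 4 per group, limma adjusted p = 0.845). Leaving out treated replicate 3 gave -0.29, with an adjusted p of 0.595 by limma, and leaving out treated replicate 1 gave -0.10.

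The hydration and dehydrogenation that follow are run by 2 bifunctional enzymes of opposite stereochemistry. Hsd17b4, the D-bifunctional protein, serves very long and branched chains and bile acid precursors. It was at 10.85, 10.92, 10.89 and 10.95 in control livers and at 10.67, 10.83, 10.80 and 10.86 in treated livers. The controls were tightly grouped, and 3 of the 4 treated livers lay below all of them, while treated replicate 4 overlapped control replicate 1. The difference was -0.11 ± 0.05 (n = 4 per group), with an unadjusted limma p of 0.0653 and an adjusted p of 0.692. The groups did not overlap without control replicate 1 or without treated replicate 4, and the difference was -0.07 without treated replicate 1.

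Ehhadh, the L-bifunctional enzyme, is among the best known PPAR-alpha targets and handles straight and dicarboxylic chains. Its signal was 9.97, 10.70, 10.43 and 10.56 in control livers and 10.26, 10.48, 10.10 and 10.47 in treated livers. All 4 treated livers lay inside the control range, which control replicate 1 set at the bottom and control replicate 2 at the top. The difference was -0.09 ± 0.15 (n = 4 per group, limma adjusted p = 0.955). Single livers moved it: leaving out control replicate 1 gave -0.24, control replicate 2 gave 0.01 and treated replicate 3 gave -0.01.

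Thiolytic cleavage is carried out by the 3-ketoacyl-CoA thiolases Acaa1a and Acaa1b and by the thiolase form of Scp2. Acaa1a was at 9.28, 9.80, 9.50 and 9.58 in control livers and at 9.34, 9.67, 9.22 and 9.47 in treated livers. Acaa1b, its close relative, was at 9.91, 10.91, 10.45 and 10.66 in control and at 10.16, 10.67, 10.13 and 10.55 in treated livers. In both genes control replicate 2 was the highest liver and the groups overlapped, with treated replicate 3 below every control for Acaa1a. The probe sets of these near-identical genes may each read some RNA of the other, which was not tested.

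The differences were -0.12 ± 0.12 for Acaa1a and -0.10 ± 0.21 for Acaa1b (n = 4 per group, limma adjusted p = 0.890 and 0.964). Without control replicate 1 they were -0.20 and -0.29, and without control replicate 2 they were -0.03 and 0.04. Without treated replicate 2 both were -0.20, and without treated replicate 3 they were -0.05 and -0.02. For Acaa1b, leaving out treated replicate 1 gave -0.03, treated replicate 4 gave -0.16 and control replicate 4 gave -0.04.

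Scp2 encodes both that thiolase, which acts on branched chains and bile acid precursors, and the smaller sterol carrier protein 2, and its probe set does not separate them here. It was the steadiest of the 9, at 12.47, 12.44, 12.52 and 12.54 in control livers and at 12.48, 12.46, 12.46 and 12.43 in treated livers. The whole spread over 8 livers was 0.11, or 1.08-fold, near the top of the signal range. The difference was -0.03 ± 0.04 (n = 4 per group, limma adjusted p = 0.921).

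Ech1 is an accessory isomerase for fatty acids with double bonds at odd positions, found in peroxisomes and mitochondria. It was at 9.18, 9.03, 9.17 and 9.11 in control livers and at 9.08, 8.72, 8.84 and 9.08 in treated livers. Treated replicates 2 and 3 lay below every control, while replicates 1 and 4 lay inside the control range. The difference of -0.19 ± 0.09 was the largest of the 9 in size (0.87 of control, n = 4 per group), with an unadjusted limma p of 0.0529 and an adjusted p of 0.663. Without treated replicate 2 it was -0.12.

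Crot, the carnitine octanoyltransferase, loads shortened chains onto carnitine for export to mitochondria. It was at 11.91, 12.10, 11.69 and 12.02 in control livers and at 12.02, 11.96, 11.87 and 11.64 in treated livers. Only treated replicate 4 lay below the lowest control, and without it the difference of -0.06 ± 0.11 became 0.02 (n = 4 per group, limma adjusted p = 0.957 with all livers and 0.987 without it). Without control replicate 3 it was -0.14.

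**Figure D2:**
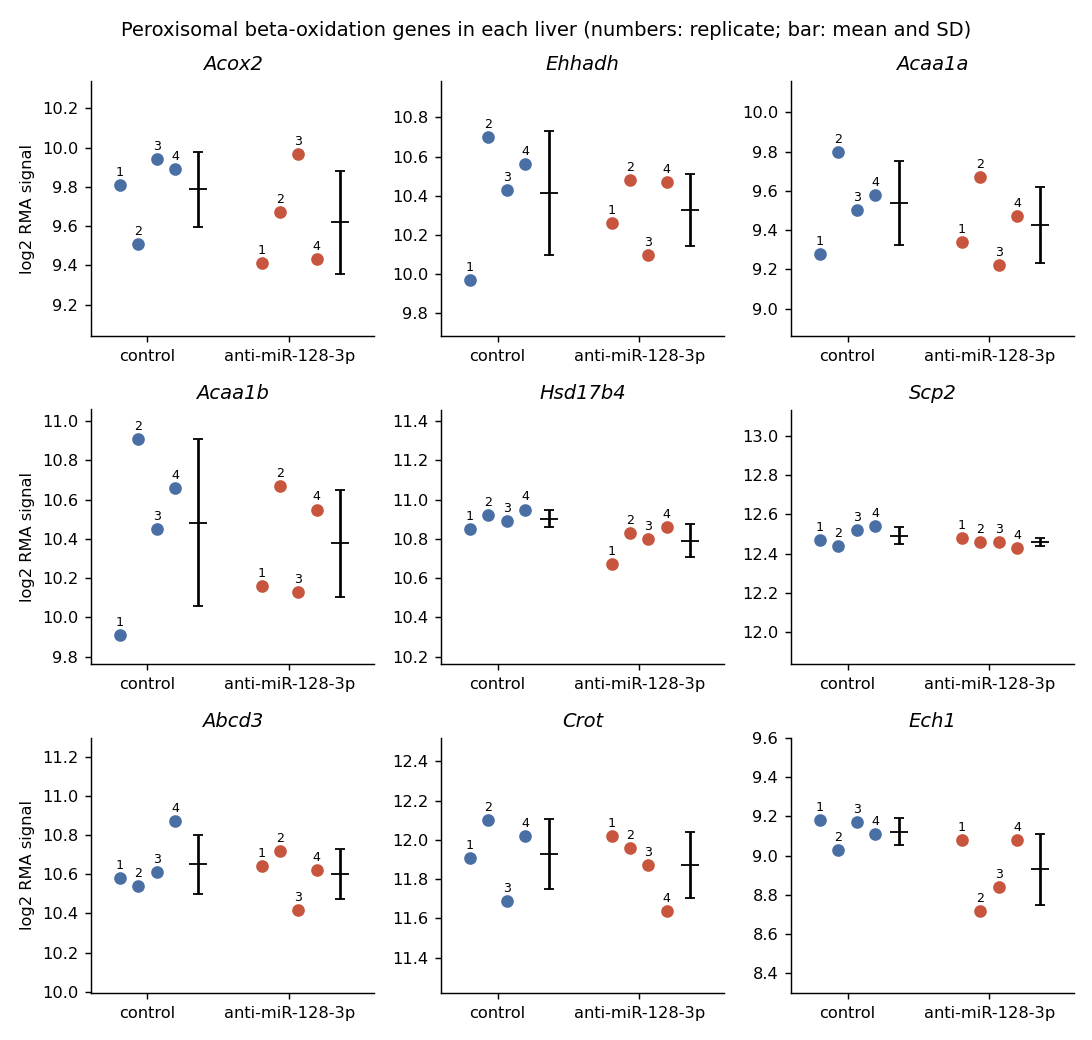
Log2 RMA signal of each of the 9 genes (vertical axes, all spanning the same width of log2 units) in control livers (blue) and anti-miR-128-3p livers (red). Points are single livers numbered by replicate, and bars show the group mean with the SD of 4 livers. The groups overlap in all 9 genes, and Acaa1b spreads over 1.00 log2 units while Scp2 spreads over 0.11.

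The SD over all 8 livers was larger than the group difference for 7 of the 9 genes, and 3 genes shared a pattern over the livers. Ehhadh, Acaa1a and Acaa1b were low together in control replicate 1 and treated replicate 3 and high together in control replicate 2. Their mean gene-centred signal was -0.38, 0.37, 0.03 and 0.17 in control replicates 1 to 4 and -0.18, 0.18, -0.28 and 0.07 in treated replicates 1 to 4. Acaa1b ranged 2.00-fold between its lowest and highest liver, Ehhadh 1.66-fold and Acaa1a 1.49-fold.

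Over the 8 livers, Ehhadh and Acaa1b correlated at Pearson r = 0.98 and Spearman rho = 0.98 (exact two-sided permutation p = 4.96e-05 and 0.000397, Benjamini-Hochberg adjusted over the 36 pairs of the 9 genes 0.00179 and 0.0143). For Acaa1a and Acaa1b both coefficients were 0.95 (exact permutation p = 0.00067 and 0.00114, adjusted 0.0121 and 0.0205). For Ehhadh and Acaa1a they were 0.92 and 0.93 (exact permutation p = 0.00144 and 0.00223, adjusted 0.0173 and 0.0268). These were the 3 pairs of 36 past an adjusted 0.05, and the 3 genes were picked out after the correlations were seen. The Acaa1a and Acaa1b probe sets may each read some RNA of the other, which was not tested. The 3 pairs may therefore not be separate observations. The other 33 pairs ran from r = -0.32 (Acox2 with Ehhadh) to 0.59, with a median of 0.17.

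The 3 genes also moved together within groups and without the extreme livers. With each group centred on its own mean, r was 0.98, 0.95 and 0.92 in the same order. Without the 2 livers farthest from the median of the first-named gene it was 0.97 for Ehhadh with Acaa1b, 0.94 for Acaa1a with Acaa1b and 0.91 for Ehhadh with Acaa1a. Control replicate 1, low in all 3 genes, was also the highest liver for 10 of 12 neutrophil genes, and treated replicate 3 was the highest for 8 of 11 stellate cell and fibroblast genes and 16 of 18 interferon-induced genes. Without both of these livers r was 0.97, 0.95 and 0.91.

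**Figure D3:**
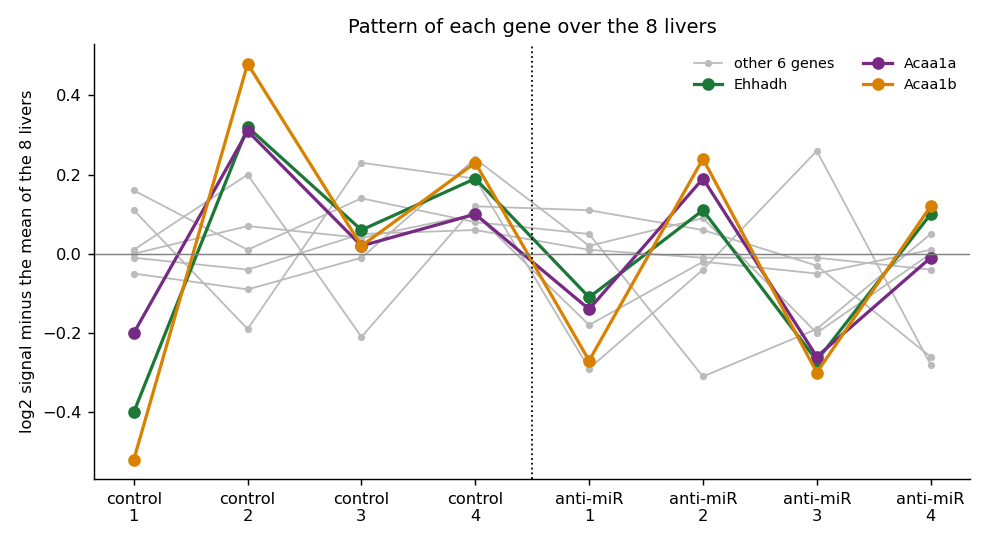
Log2 signal of each gene minus its mean over the 8 livers (vertical axis) for control replicates 1 to 4 and anti-miR-128-3p replicates 1 to 4; lines only help the eye follow a gene, since replicates have no order. Ehhadh, Acaa1a and Acaa1b (coloured) are low in control 1 and anti-miR 3 and high in control 2, while the other 6 genes are grey.

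The promoter windows of these 3 genes are shown because their signals moved together over the livers. They are RefSeq windows of GRCm38.p6, 250 bases before to 50 bases after an annotated transcript start, 5′ to 3′ on the gene's strand, with the 50 bases after the start in capitals. Ehhadh lies at chr16:21787785-21788084 (minus strand), Acaa1a at chr9:119341044-119341343 (plus strand) and Acaa1b at chr9:119157044-119157343 (minus strand).
Ehhadh: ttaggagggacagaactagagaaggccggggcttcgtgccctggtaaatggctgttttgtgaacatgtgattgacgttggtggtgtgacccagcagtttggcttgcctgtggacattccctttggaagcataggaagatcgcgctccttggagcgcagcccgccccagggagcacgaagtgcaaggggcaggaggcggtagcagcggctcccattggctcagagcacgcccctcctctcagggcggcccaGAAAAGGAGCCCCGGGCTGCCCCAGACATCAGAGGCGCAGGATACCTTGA
Acaa1a: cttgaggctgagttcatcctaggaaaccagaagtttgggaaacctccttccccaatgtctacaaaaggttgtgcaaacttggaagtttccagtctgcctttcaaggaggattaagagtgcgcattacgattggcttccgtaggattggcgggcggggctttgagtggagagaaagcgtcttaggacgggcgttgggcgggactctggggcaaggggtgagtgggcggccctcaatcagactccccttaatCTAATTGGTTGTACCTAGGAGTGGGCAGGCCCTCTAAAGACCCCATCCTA
Acaa1b: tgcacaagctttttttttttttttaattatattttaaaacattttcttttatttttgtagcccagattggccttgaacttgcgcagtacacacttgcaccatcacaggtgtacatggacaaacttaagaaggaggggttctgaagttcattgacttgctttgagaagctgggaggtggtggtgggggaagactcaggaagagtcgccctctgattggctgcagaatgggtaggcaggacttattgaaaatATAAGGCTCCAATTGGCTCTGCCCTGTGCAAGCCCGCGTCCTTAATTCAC

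PPAR-alpha binds, with its partner RXR, to a pair of AGGTCA elements spaced by 1 base. A search of both strands for 2 exact AGGTCA copies spaced by 1 base found 0 in the 10 windows listed for 8 of the 9 genes (Hsd17b4 was not among them), against 0.0396% of all 32851 windows. A single AGGTCA was present in 1 of the 10 windows, that of Scp2, starting 109 bases before the start, against 16.3% of all windows. The absence of these letters says nothing of sites elsewhere or of imperfect copies. The letters CCAAT were searched on both strands after the sequences had been seen. They occurred 4 times each in the Acaa1a and Acaa1b windows and once in that of Ehhadh. In the Acaa1b window the stretch CCAATTGG was counted on each strand, so those copies overlap. At least 1 copy was in 5 of the 10 windows against 37.4% of all windows. How many of all windows hold 4 copies was not counted.

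In global alignments of the windows, 51.8% of columns were identical between Acaa1a and Acaa1b, 51.5% between Acaa1a and Ehhadh and 47.2% between Acaa1b and Ehhadh. The windows of the 2 thiolase genes were thus about as alike as that of Acaa1a was to Ehhadh.

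Other genes of the peroxisome were taken from lists set by role, and most but not all of them had means below control. Of 25 measured genes (27 listed) for other peroxisomal acyl-CoA reactions, 20 lay below control and 5 above it in treated livers. Their median log2 difference was -0.11, and 0 passed the adjusted limma test. At an unadjusted p under 0.05, 3 were lower and 0 higher, where the background over all genes was 3.37% lower and 4.26% higher. Mlycd, the malonyl-CoA decarboxylase, differed by -0.32 ± 0.09, the acyl-CoA thioesterase gene Acot8 by -0.25 ± 0.07 and the racemase gene Amacr, which prepares branched chains for Acox2 and Hsd17b4, by -0.19 ± 0.07 (limma adjusted p = 0.389, 0.404 and 0.584).

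Peroxins and peroxisome division genes, which build and divide the organelle, gave a median of -0.10, and 0 passed the adjusted limma test. Of 16 measured genes (19 listed), 14 were lower and 2 higher. The list includes the division genes Fis1 (0.12), Mff (-0.06) and Dnm1l (-0.07). Pex26, which anchors the import machinery, differed by -0.19 ± 0.05, the import pore component Pex13 by -0.17 ± 0.05 and the membrane protein chaperone Pex19 by -0.14 ± 0.06 (limma adjusted p = 0.391, 0.486 and 0.609). Pex11a, a PPAR-alpha-responsive division gene, had a mean of 8.23 ± 0.25 (control) and 7.94 ± 0.24 (treated; SD, n = 4 each, limma adjusted p = 0.711).

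Of 22 other peroxisomal genes measured (24 listed), 15 were lower and 7 higher, with a median of -0.09 and 0 past the adjusted limma test. These counts include Dao (0.03) and Hao2 (-0.20), whose signals lay at or below the median of the negative control rows in all 8 livers. The matrix protease gene Tysnd1, which trims imported beta-oxidation enzymes, differed by -0.29 ± 0.10, Pxmp4 by -0.23 ± 0.08 and Gstk1 by -0.25 ± 0.09 (limma adjusted p = 0.549, 0.549 and 0.571). Catalase (Cat), the enzyme that removes the hydrogen peroxide made in peroxisomes, had means of 13.23 ± 0.11 (control) and 13.21 ± 0.09 (treated; SD, n = 4 each).

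The mitochondrial beta-oxidation enzymes, which take over the shortened chains, had a median of -0.14, with 15 of 16 measured genes (17 listed) lower. In that list 6 genes had groups that did not overlap, all lower, against 1.89% of all genes, and 0 passed the adjusted limma test. The share of 1.89% covers dim genes as well. The count was 0 of the 9 peroxisomal beta-oxidation genes and 2 of the 25 genes of other peroxisomal acyl-CoA reactions. It was 3 of the 16 peroxins and division genes, where 1 more gene was higher without overlap. It was 0 of the 22 other peroxisomal genes and 3 of the 16 genes in the PPAR-alpha list. Whether the lists differ was not tested. Hadhb differed by -0.22 ± 0.05, Cpt2 by -0.36 ± 0.08 and Slc25a20 by -0.35 ± 0.08.

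PPAR-alpha itself (Ppara) differed by -0.17 ± 0.07 (limma adjusted p = 0.641), with means of 9.83 ± 0.14 (control) and 9.66 ± 0.07 (treated; SD, n = 4 each). Of the 16 measured genes in the list of the receptor, its partners and other targets (18 listed), 13 were lower and 3 higher, with a median of -0.24 and 0 past the adjusted limma test. Vnn1 differed by -0.91 ± 0.23, the transcription factor gene Creb3l3 by -0.24 ± 0.06 and Acot2 by -0.25 ± 0.08.

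**Figure D4:**
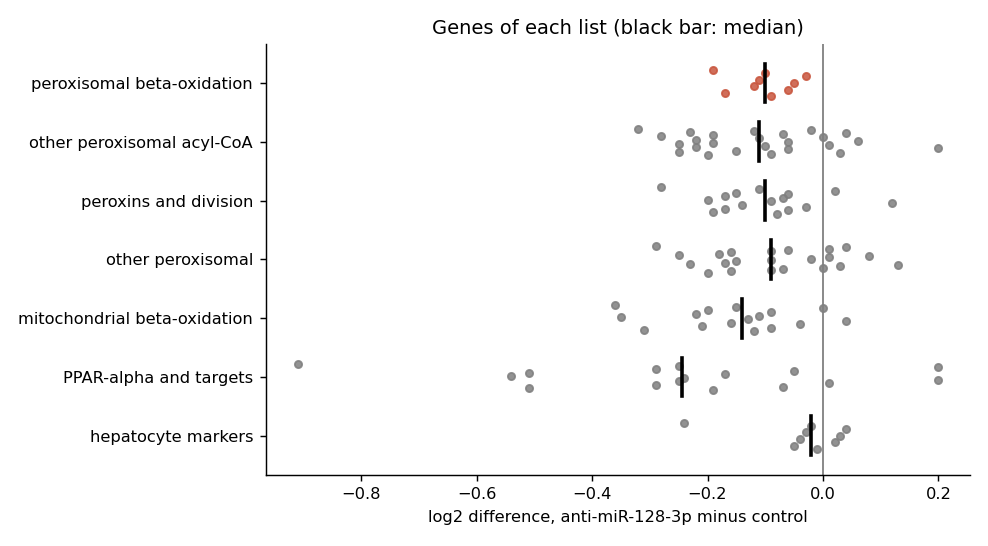
Log2 difference (anti-miR-128-3p minus control) of each measured gene on the horizontal axis, by list, with the list median as a black bar. The 9 peroxisomal beta-oxidation genes (red) lie between -0.19 and -0.03, inside the range of the other peroxisomal and mitochondrial lists, whose medians run from -0.14 to -0.09.

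Hepatocyte markers, the genes of the cell type that holds most liver peroxisomes, had a median difference of -0.02, with 6 of 9 measured genes (12 listed) lower. Their list scores ran from 0.00 to 0.04 in control and from -0.08 to 0.07 in treated livers. Hnf4a, a hepatocyte transcription factor gene, differed by -0.24 ± 0.10 (limma adjusted p = 0.606). Pericentral hepatocyte genes were lower in 7 of 7 measured (median -0.04) and periportal genes in 5 of 8 (median -0.13).

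Markers of other liver cells also differed between livers. Kupffer cell and macrophage markers were higher in treated livers in 11 of 12, with scores of -0.94 to 0.08 in control and -0.31 to 0.78 in treated livers. Stellate cell and fibroblast markers were higher in 8 of 11, with scores of -0.34 to -0.15 and -0.14 to 0.88. Sinusoidal endothelial markers were lower in 11 of 12, with scores of -0.16 to 0.39 and -0.35 to 0.10. Neutrophil markers were lower in 10 of 12 (-0.37 to 1.31 and -0.35 to -0.01), and lymphocyte and NK cell markers higher in 8 of 10 (-0.21 to 0.31 and 0.00 to 0.11).

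None of the macrophage, stellate, endothelial or neutrophil markers lay at or below the median of the negative control rows in all 8 livers. The lymphocyte and NK cell genes Ms4a1, Klrb1c and Ncr1 did. The neutrophil gene Mmp8 was above that level only in control replicate 1 (4.80), and lay at 3.59 to 3.69 in the other livers. Elane was at 5.52 in control replicate 1 and near that level, at 4.18 to 4.54, in the others. Interferon-induced genes were higher in 18 of 18 measured, with scores of -0.78 to -0.19 in control and 0.28 to 0.83 in treated livers. The part of these lists in the values of the peroxisomal genes was not tested.

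The genes whose levels followed the 9 most closely were found by their correlation with the mean gene-centred signal of the 9, over 8 livers and 11330 protein-coding genes at or above the median signal. That mean was -0.10, 0.12, 0.04 and 0.15 in control replicates 1 to 4 and -0.09, 0.03, -0.12 and -0.04 in treated replicates 1 to 4, and it followed Ehhadh and Acaa1a (r = 0.88 each) and Acaa1b (0.87) far more than Ech1 (0.06) or Acox2 (0.04). The 8 most like it were Ddc (r = 0.977), Pan2 (0.969), Usp54 (0.963), Dhrs3 (0.959), Nmt2 (0.957), Numb (0.951), Sema5b (0.944) and Hsd17b2 (0.943). With each group centred on its own mean they were Ddc (0.981), Sipa1l1 (0.977), Alas2 (0.970), Mocos (0.965), Pan2 (0.959), Cdk6 (0.958), Ttc3 (0.958) and Idh1 (0.955). Ddc, the aromatic amino acid decarboxylase gene, and Pan2 were in both sets, and Idh1 encodes an isocitrate dehydrogenase found in cytosol and peroxisomes. The genes share the same 8 livers and were ranked out of many, so the coefficients are a description.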

How the data were processed

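Liver RNA of 8 mice was measured on 8 Affymetrix arrays, 1 sample per array. The deposited values are log2 signals made with RMA, per the submitters' processing notes. Its version and filters: not given in the sources used here. Array control rows (6732) were left out. Of the 65956 transcript probe sets, 31080 name exactly 1 gene by the platform annotation, updated by Entrez ID through a RefSeq table of GRCm38.p6, which gave 30627 genes. For genes with several probe sets the brightest over all 8 arrays was used.

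Differences (treated minus control) were fitted by limma (version 3.58.1, R 4.3.3; lmFit and eBayes, two-sided, no covariate, no dim filter) with Benjamini-Hochberg adjustment over all genes at 0.05. The scripts were tested on simulated data. Python 3.11.15, scipy 1.17.1 and Biopython 1.88 served for correlations and alignments. A list score is the mean gene-centred signal of the list's measured genes.

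Members and lists were chosen with earlier results of these data known. Named genes are the 9 members, up to 3 per list by smallest p, fixed genes (Cat, Ppara, Pex11a) and the 8 most correlated genes. Protein sequences and 3′ UTRs were not used here. The alternatives changed the variance moderation, array weights, dim-gene filter, probe set rule, normalization, threshold and livers used; each member had 1 probe set, so none could be compared. The number of arrays limits precision.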

Additional observations from a re-analysis of the deposited data

How the results depend on the processing

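Across the alternatives run, 0 of the 9 genes were called after adjustment, including at an adjusted p under 0.1, and the median log2 difference of the 9 stayed below 0. It was between -0.12 and -0.08 with trend and robust moderation, array weights, filters on dim genes, averaged probe sets, quantile normalization, median centring and the replicate block, and between -0.16 and -0.04 when each liver was left out in turn. Over all genes, limma called 0 in each setting, except for 1 (Irgm1) without control replicate 4, so leaving out livers gave 0 to 1. At an unadjusted p under 0.05, 1 of the 9 was lower with arrays centred on their medians and 1 with the replicate block (Ech1 in both), and 0 to 2 when livers were left out in turn (Ech1, Hsd17b4 or Acox2). The groups of Ech1 did not overlap after median centring (1 gene), those of Hsd17b4 did not without control 1 and treated 3 together, an alternative chosen after seeing the data (1 gene), and leaving out single livers gave 0 to 1. Same-numbered livers did not deviate together (r = -0.03, -0.02, -0.08 and -0.12 for numbers 1 to 4), so the numbers were not taken as pairs and the replicate block is given only here. Signs turned for Scp2 (0.07) and Crot (0.03) under quantile normalization. When each liver was left out in turn, Crot ran from -0.14 to 0.02, Abcd3 from -0.09 to 0.02, Ehhadh from -0.24 to 0.01 and Acaa1b from -0.29 to 0.04. The cause was not tested. Leaving out each liver kept Ech1, Hsd17b4, Acox2, Acaa1a and Scp2 below control. Differences smaller than about the half-widths of the intervals in the text are not resolved with 4 livers a group, even before adjustment. After adjustment over all genes, larger differences can also go uncalled.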

Other observations

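Ehhadh, Acaa1a and Acaa1b, all known PPAR-alpha targets, were set against the 16 other measured genes of the receptor's list to see whether those followed the same livers. The mean gene-centred signal of the 3 genes correlated with them at r = -0.51 to 0.48 over 8 livers (median 0.14, 11 above 0 and 4 below), and no gene passed (smallest Benjamini-Hochberg adjusted exact permutation p = 0.838 for r and 0.921 for rho over the 16). Cyp4a14, a fatty acid omega-hydroxylase gene and a classic target of the receptor, was at 10.16, 10.43, 10.78 and 7.63 in control replicates 1 to 4 and at 8.49, 9.19, 9.57 and 10.74 in treated replicates 1 to 4 (r = 0.00, rho = -0.02). Cyp4a14 was lowest in control replicate 4, where the 3 peroxisomal genes were above their mean. It was at 10.16 in control replicate 1, where the mean gene-centred signal of the 3 was lowest. Vnn1 was highest in control replicate 2, at 9.44, as the 3 genes were (r = 0.45, rho = 0.31). Without the 2 livers farthest from the median, r was 0.85 for Vnn1, 0.81 for Cd36 and 0.55 for Ppara. Over the 16 genes it ran down to -0.63 (Cyp4a32), so these coefficients depended on the 2 livers, which were left out together. Cyp4a14 was picked out after its values were seen, and a comparison over 8 livers can resolve only strong correlations.

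In the 18 groups of 4 values given by the 9 genes, no liver was separated from its group by Dixon's criterion at the 95% level. The largest gap was 0.775 of its group's range.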
